A study of Caenorhabditis elegans with 4 samples.

Results

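The regions described here are those bound by UNC-130::GFP on chromosome III of Caenorhabditis elegans. They were taken from the deposited list of bound regions by their chromosome alone, and number 419 of the 2715 regions in the list (15.4%, 95% exact binomial interval 14.1% to 16.8%). The assay was ChIP-seq (chromatin immunoprecipitation followed by sequencing), in which DNA crosslinked to a tagged protein is captured with an antibody and sequenced beside unselected input DNA. There were 2 ChIP libraries, captured with a goat antibody raised against enhanced GFP, and 2 input libraries, 1 of each from replicates 1 and 2.

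All 4 libraries came from fed hermaphrodites at the first larval stage (L1), grown at 20 °C, with 2% formaldehyde given for each. Their strain, OP77, has the mutation unc-119(ed3) on chromosome III and the integrated transgene wgIs77, which supplies functional unc-119(+) as the rescue marker and unc-130 joined to TY1, EGFP and 3xFLAG tags. ChIP and input libraries share this genotype, and no library from animals without the transgene was used here. The transgene was introduced by bombardment with a recombineered plasmid, and the chromatin came from whole animals, so signals from all cells that make the fusion protein are mixed. The list holds no expression values, so the labelled stage could not be checked against marker genes.

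UNC-130 is a forkhead transcription factor of the FoxD class. In C. elegans it is known for keeping the TGF-beta-like gene unc-129 off in ventral body wall muscle, which guides migrating cells and axons along the dorsoventral axis, and for separating the fates of sensory neurons that arise from a shared lineage. Forkhead factors bind DNA through a winged-helix domain and commonly sit at promoters and enhancers. Worm chromosomes are holocentric, with gene-rich central parts of low recombination flanked by arms that hold more repeats and more repressive chromatin. Chromosome III carries the Hox genes ceh-13, lin-39, mab-5, egl-5, php-3 and nob-1, which pattern the body axis, and unc-119, while unc-130 itself is on chromosome II, per a RefSeq gene table of assembly WBcel235. That assembly differs from the one of the list, so regions were not assigned to genes, and all positions below are coordinates of WormBase WS180.

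The values deposited for a region are its start, its end and a q value, the false discovery rate that the authors' peak caller gave to its enrichment. Since the list is a combined one without a value per library, no region has a replicate error, the read depth behind it is unknown, and regions of 1 list are not replicates of each other. Differences along the chromosome and between chromosomes are therefore given as values, with 95% exact binomial intervals on shares of regions, and were not tested.

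The 419 regions ran from 13558 to 13781156 on chromosome III, a span of 13.8 Mb, and covered 203 kb or 1.47% of it. On the other chromosomes together the covered share of the span was 1.32%. The density on chromosome III was 30.4 regions per Mb, against 26.7 per Mb on the other 5 chromosomes together. That mean includes the dense chromosome I, and chromosome III stood second to it, above chromosomes X (26.7), II (26.3), IV (21.3) and V (20.9).

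Along chromosome III, in windows of 1 Mb, the regions were sparsest in the first window and densest a little left of the centre. The first complete window of 1 Mb held 17 regions and the sixth, from 5 to 6 Mb, held 48, which is 2.82 times as many. The other 11 complete windows held between 22 and 35 regions each. In these 13 windows the mean was 30.5 ± 7.51 regions (SD over windows), against 26.6 ± 10.9 in the 84 complete windows of the other chromosomes, whose counts ran from 5 to 61. Chromosome III thus held neither the emptiest nor the fullest of these windows, and its fullest was the only one of its own above 35. That depended on where the windows began. When they were shifted by 500 kb, those from 5.5 to 6.5 Mb and from 10.5 to 11.5 Mb held 45 and 42 regions.

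The count of regions with q at or under 1e-05 varied between windows, which were picked here by their values and not tested. Such a q was reached by 24.3% of all regions on the chromosome and by 19.9% of the whole list. The window from 10 to 11 Mb held 13 such regions among its 35, the most of these windows. The one from 6 to 7 Mb held 5 among the same number. At the left end, the window from 1 to 2 Mb held 10 such regions among 25, and the first window held 1 among 17. The densest window, from 5 to 6 Mb, held 10 among 48 and had the most covered sequence, 22.4 kb. In windows shifted by 500 kb, the highest count of such regions was 16 among 42, from 10.5 to 11.5 Mb.

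**Figure D1:**
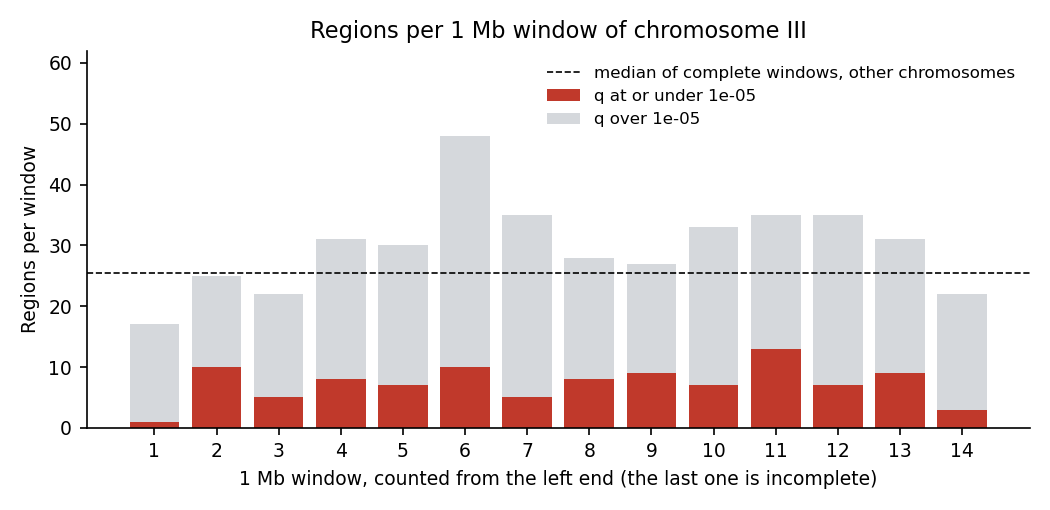
Regions per window of 1 Mb on chromosome III, counted from its left end, with regions of q at or under 1e-05 in red and the rest in grey; the dashed line is the median of complete windows on the other chromosomes (25.5). The bars run from 17 in the first window to 48 in the sixth, and the eleventh window has the most regions of low q (13).

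Cut into 3 equal parts, the span held 117 regions in its left part, 154 in the middle and 148 on the right. The left part thus had 27.9% of the regions (23.7% to 32.5%), the middle 36.8% (32.1% to 41.6%) and the right 35.3% (30.7% to 40.1%), where even spacing would give 33.3% to each. The interval of the left part alone excluded that value, but it takes regions as independent draws, though many lie in groups. Regions of q at or under 1e-05 were near the same share in all parts, with 24.8% of the left regions, 23.4% of the middle and 25% of the right. Of the 16 regions with q at or under 1e-10, the middle held 8 and each outer part 4, and 3.24% of the whole list had such a q.

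Regions of the middle part more often had a near neighbour, although the intervals overlapped. There 78 of 154 regions (50.6%, 42.5% to 58.8%) had another region within 5 kb, counted from edge to edge, against 41 of 117 on the left (35.04%, 26.5% to 44.4%) and 54 of 148 on the right (36.5%, 28.7% to 44.8%). In the whole list 40.5% of regions had one so near. The median distance to the nearest region was 4.84 kb in the middle, 9.26 kb on the left and 7.52 kb on the right. Median widths were 380 bp in the middle, 360 bp on the left and 369.5 bp on the right, and the middle held 15 of the 29 regions of 1000 bp or more, a width that 7.40% of the whole list reached. The intervals on the share of such broad regions overlapped, with 9.74% in the middle (5.55% to 15.6%) and 4.27% on the left (1.40% to 9.69%).

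**Figure D2:**
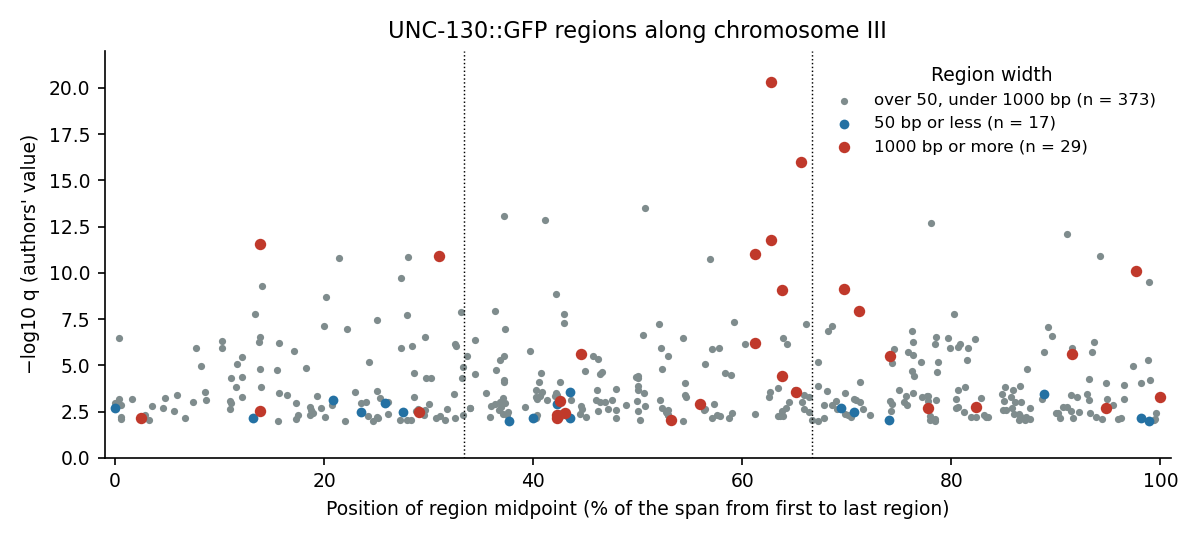
Each point is 1 of the 419 regions, placed by its midpoint as a percentage of the span and by its −log10 q as the authors gave it; colours mark width classes and dotted lines the 3 equal parts of the span. The 2 highest points, both broad regions at 62.8% and 65.7% of the span, reach 20.3 and 15.99.

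The most significant region of the chromosome lay at III:8657541-8658773, was 1233 bp wide and had q = 4.75e-21. Its left neighbour, 2627 bp away at III:8652151-8654913, was 2763 bp wide and ranked 8 on the chromosome (q = 1.78e-12). To the right the next region was 82592 bp away, so this pair of broad regions was followed by a long stretch without calls.

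The second region by q, at III:9051188-9055040, was also the second widest of the chromosome (3853 bp, q = 1.02e-16). The third was narrower, 629 bp at III:6987908-6988536 (q = 2.97e-14), and the one of rank 4, 791 bp at III:5141608-5142398 (q = 8.19e-14), was the strongest member of the longest run of regions, described further on. The fifth, at III:5678934-5679251, was only 318 bp wide (q = 1.44e-13) and its nearest neighbour was 28714 bp away. Among the first 5, low q values were thus found both for broad regions with neighbours and for a short region standing alone.

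The sixth and the seventh by q lay on the right part of the chromosome, at III:10758981-10759830 (850 bp, q = 2.09e-13) and III:12555856-12556426 (571 bp, q = 7.90e-13). The ninth, at III:1924437-1925759 (1323 bp, q = 2.80e-12), was the strongest of the left part and had neighbours 287 and 213 bp away. The tenth, at III:8445549-8447259 (1711 bp, q = 9.41e-12), had a neighbour 294 bp to its left and none for 183559 bp to its right.

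Ranks 11 to 15 on the chromosome had q values between 1.20e-11 and 1.83e-11. They were III:4280263-4283511, with 3249 bp the widest of these, III:12978737-12979041 with 305 bp, III:3867413-3868071 with 659 bp, III:2966494-2966899 with 406 bp and III:7854374-7854788 with 415 bp. The region of 406 bp had its nearest neighbour 70231 bp away, the farthest of the first 15. Of the 15, 8 had another region within 5 kb (53.3%, 26.6% to 78.7%), against 41.3% of all regions on the chromosome. Their widths ran from 305 to 3853 bp with a median of 791 bp, and 8 lay in the middle part of the span, 4 on the left and 3 on the right.

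Over the whole chromosome, 237 regions (56.6%, 51.7% to 61.4%) had q at or under 0.001, against 51.7% of the 2715 regions in the list. A q at or under 1e-05 was reached by 102 regions (24.3%, 20.3% to 28.7%), against 19.9% of the list, and one at or under 1e-10 by 16 regions (3.82%, 2.20% to 6.13%), against 3.24% of the list. The share at 1e-05 was 19.0% on the other chromosomes together (17.4% to 20.7%) and between 17.7% and 20.9% on each of them. The interval of chromosome III and that of the others overlapped slightly, and the difference was not tested. The median q was 6.82e-04 on chromosome III and 9.57e-04 on the others.

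By rank in the whole list, the first region of chromosome III came at 14. The chromosome supplied 0 of the first 10 regions by q (exact binomial interval 0% to 30.8%), 2 of the first 25, 6 of the first 50 (12%, 4.53% to 24.3%), 18 of the first 100 (18%, 11.0% to 26.9%), 43 of the first 250 (17.2%, 12.7% to 22.5%), 95 of the first 500 (19%, 15.7% to 22.7%) and 166 of the first 1000 (16.6%, 14.3% to 19.1%). Its share of the full list was 15.4%. These sets are nested, so each holds the ones before it.

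Regions of the chromosome were mostly narrow, and their widths were close to those elsewhere. The median was 374 bp, with 25th and 75th percentiles of 286 and 571 bp, against 379 bp (281 and 575 bp) on the other chromosomes. Widths over 200 and up to 500 bp were found in 233 regions (55.6%, 50.7% to 60.4%), against 54.6% of regions elsewhere, and widths over 500 and under 1000 bp in 103 regions (24.6%), against 24.2% elsewhere. The intervals of chromosome III and of the other chromosomes overlapped in every width class.

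Broad regions, of 1000 bp or more, numbered 29 on chromosome III (6.92%, 4.68% to 9.79%), against 7.40% of the list. They held 49.4 kb, or 24.4% of the covered sequence of the chromosome. The widest lay at III:13462732-13466728 near the right end, with 3997 bp and q = 8.13e-11. No region of chromosome III reached the 4534 bp of the widest region on chromosome IV, the smallest such maximum among the other 5. In all, 6 regions were over 2000 bp wide, including the 3 already named at ranks 2, 8 and 11. The share of the whole list over 2000 bp was not computed, so this count has no comparison.

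Among the 8 widest, q values differed by many orders of magnitude. The region at III:12613295-12616416 was 3122 bp wide with q = 2.32e-06. By contrast the one at III:348233-350433, of 2201 bp, had q = 0.00702 and ranked 378 of 419, and the one at III:5838188-5839915, of 1728 bp, had q = 0.00489 and ranked 344. Of the 29 broad regions, 14 were among the most significant 104 of the chromosome, a set of about 25% of its 419 regions. The last of the 29 ranked 402.

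Broad regions lay together in some places, chosen here after their positions were seen. From 8.4 to 9.1 Mb there were 8 of the 29 among 25 regions, in 5.08% of the span, and 4 of these 8 were among the first 10 of the chromosome by q. They included both members of a pair 238 bp apart at III:8799710-8801041 and III:8801280-8802743, of 1332 and 1464 bp (q = 3.62e-05 and 8.47e-10). From 5.8 to 6.0 Mb there were 4 broad regions among 16, but with q values from 8.43e-04 to 0.00677, none of them among the first 10. Broad regions are what these stretches were chosen by, so their likeness in width is no result. The difference in q is that of the broad regions alone. Among the narrower regions from 5.8 to 6.0 Mb, III:5814763-5815215 had q = 1.39e-09, III:5919851-5920351 q = 1.69e-08 and III:5921165-5921767 q = 4.95e-08.

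At the other end of the scale, 17 regions were 50 bp wide or less (4.06%, 2.38% to 6.42%), against 4.68% of the list. The narrowest was a single base, III:5832553-5832553 (q = 0.00131). The next were 2 or 3 bases wide: III:3570062-3570063 (q = 0.00109), III:3253872-3253873 (q = 0.00322), III:9577921-9577923 (q = 0.00206) and III:13525200-13525202 (q = 0.00722). Such widths are bounds given by the caller and may not be the extent of bound DNA. Fragment lengths of the libraries were not available, so this was not tested. The 17 were spread over the span, with 6 in the left part, 5 in the middle and 6 on the right. The lowest q among them was 2.61e-04, and none had another region nearer than 1194 bp.

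Width and significance went together on the chromosome as a description of the list. Across the 419 regions, Spearman's rho of width and −log10 q was 0.39 and Pearson's r 0.42, against 0.40 and 0.50 on the other chromosomes, and both values of a region come from the same call. Ordered by q, the first 104 regions had a median width of 456.5 bp, while ranks below them, taken 105 at a time, had medians of 406, 370 and 286 bp. None of the 104 most significant was narrower than 248 bp.

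**Figure D3:**
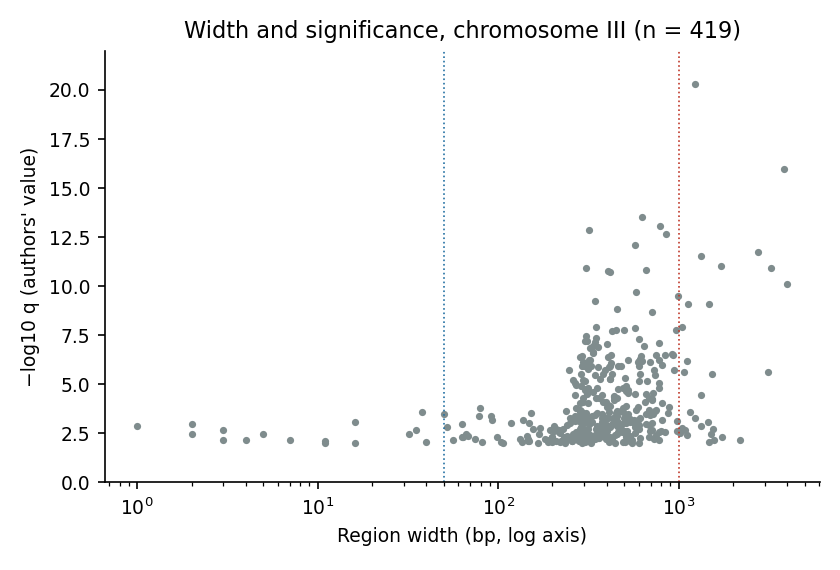
Width (log axis) and −log10 q of the 419 regions; dotted lines mark 50 bp and 1000 bp. No region of 50 bp or less comes from the 104 of lowest q, while regions of 1000 bp or more are found from the top (20.3) to near the bottom of the q axis.

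Neighbouring regions on chromosome III were separated by 418 gaps, with a median of 17.4 kb and 25th and 75th percentiles of 5.62 and 46.6 kb. The other chromosomes had a median gap of 19.8 kb, and 5.35 and 48.4 kb as percentiles. The smallest gap was 213 bp. Gaps of 1 kb or less made up 7.89% of all (5.50% to 10.9%), against 7.94% elsewhere, and gaps of over 5 to 20 kb made up 31.6% (27.1% to 36.3%), against 26.3% elsewhere (24.5% to 28.2%). Gaps over 100 kb, 31 in number, made up 7.42% of the gaps (5.09% to 10.4%), against 8.95% elsewhere (7.81% to 10.2%). They held 33.4% of the summed gap length, against 38.3% elsewhere.

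**Figure D4:**
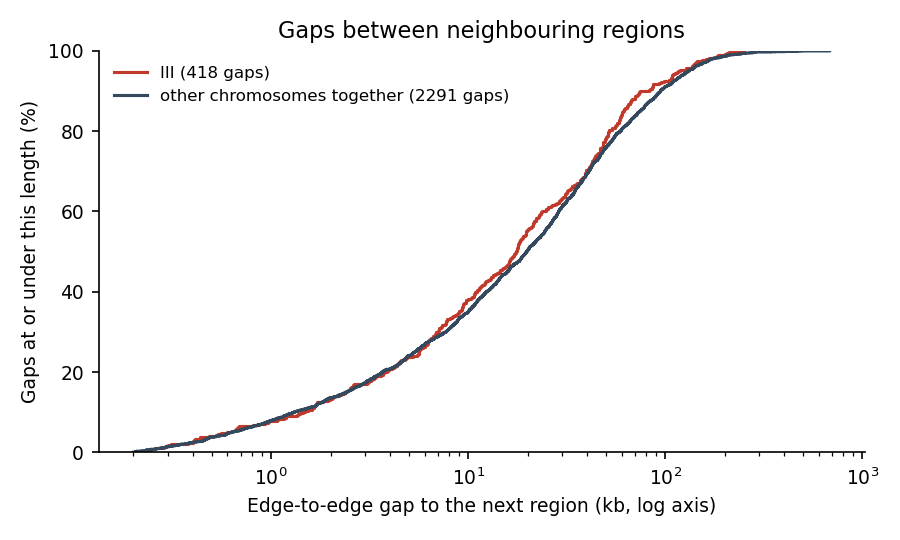
Cumulative share of edge-to-edge gaps between neighbouring regions (log axis in kb) on chromosome III (red, 418 gaps) and on the other chromosomes together (dark, 2291 gaps). The curves run together up to about 5 kb, and the medians are 17.4 kb and 19.8 kb.

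In all, 173 regions of the chromosome had another within 5 kb (41.3%, 36.5% to 46.2%), against 40.5% of the list. On the other chromosomes the share ran from 29.5% on IV to 47.8% on I. When regions were chained over gaps of 5 kb or less, 246 stood alone, 57 pairs held 114 regions, and 12 groups of 3, 3 groups of 4, 1 group of 5 and 1 group of 6 held the rest. Pairs took 27.2% of the regions, against 23.3% on the other chromosomes, and groups of 3 took 8.59%, against 8.75%. Groups of 4 or more held 23 regions (5.49%, 3.51% to 8.12%), against 8.36% elsewhere (7.26% to 9.57%), and these intervals overlapped. The 23 regions came from few groups and count together, so an interval that takes regions as independent is too narrow. The longest group elsewhere held 8 regions.

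The group of 6 ran from 5136152 to 5147057, a stretch of 10.9 kb of which 27.9% was covered. Its strongest member, with the q of 8.19e-14 given above, had 3 regions to its left and 2 to its right. The member to its right, III:5143851-5144490, had q = 1.09e-07 and the one to its left, III:5140516-5140955, had q = 6.28e-05. The outer members had q = 7.71e-05, 3.10e-06 and, at the right edge, 0.00107. The gaps beside the strongest member were 652 and 1452 bp.

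The group of 5 ran from 10811268 to 10824430 (13.2 kb, 20.2% covered). Its strongest members were adjacent, at III:10819202-10820135 (q = 3.05e-07) and III:10816765-10817363 (q = 7.16e-07), and the other 3 had q between 7.73e-04 and 0.00986. The best rank on the chromosome within this group was 46.

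Of the groups of 4, the one from 1920818 to 1926889 was the most densely covered, with 66.4% of its 6.07 kb. It held the ninth region of the chromosome by q, flanked by III:1923373-1924149 (777 bp, q = 1.52e-05) and III:1925973-1926889 (917 bp, q = 2.78e-07), and 1015 bp more at its left edge with q = 0.00288. The group from 5832553 to 5839915 was 54.1% covered but had no q under 3.87e-04, and included the single-base region. The group from 7295238 to 7300585 had 1 stronger member, III:7296988-7297366 (q = 3.02e-06), beside 3 with q between 0.00270 and 0.00514.

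**Figure D5:**
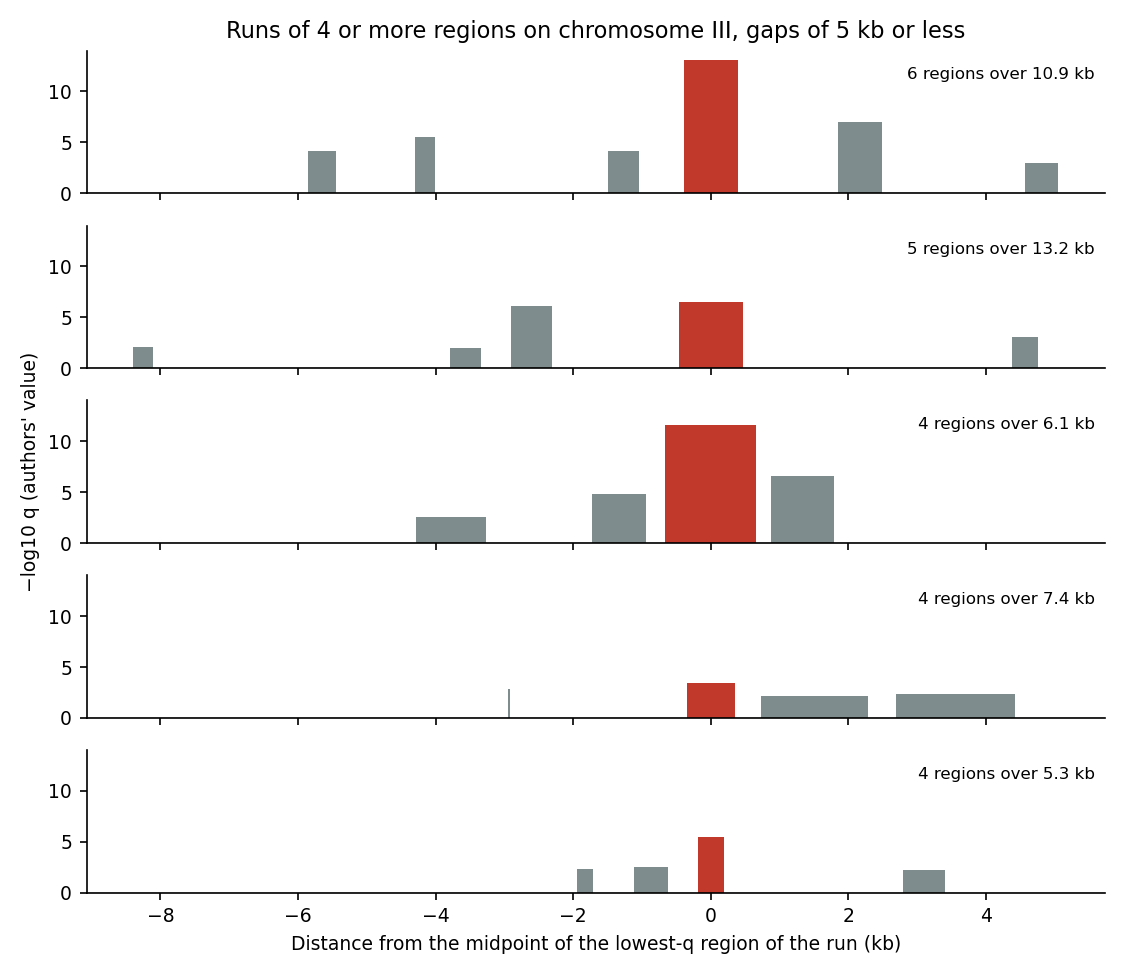
The 5 groups of 4 or more regions joined over gaps of 5 kb or less; each bar is a region drawn to its width, its height is −log10 q, the x axis is the distance in kb from the midpoint of the lowest-q region (red). The red bar, chosen as the highest of its group, is an inner member in all 5, and reaches 13.1 in the group of 6 and 11.6 in the uppermost group of 4.

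At closer range, 62 regions had a neighbour within 1 kb (14.8%, 11.5% to 18.6%), against 14.7% elsewhere. They formed 25 pairs and 4 groups of 3, and 17 of these 29 groups had at least 1 member with q at or under 1e-05. Single regions reached that q in 24.3% of cases on the chromosome and 19.9% in the list, and a group has 2 or 3 chances to hold such a region. One of the groups of 3 was at 8443601 to 8447259, where q fell along the chromosome, with 0.00423 at the left region, 6.47e-07 at the middle one and 9.41e-12 at the right. Neighbours within 5 kb were not much alike in significance: over 99 such pairs Spearman's rho of −log10 q was 0.16, over 319 pairs farther apart it was -0.06, and the median difference in −log10 q was 1.52 and 1.30.

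In bins of 100 kb, 13 of 138 held no region and 111 held 1 to 5. The densest, with 11 regions each, were 5.1 to 5.2 Mb and 5.8 to 5.9 Mb, both inside the densest window. The first contained the group of 6 and 3 regions of q at or under 1e-05. The other contained the weaker group of 4 and 1 such region, at III:5814763-5815215 (453 bp, q = 1.39e-09). Next came 7.2 to 7.3 Mb with 8 regions, 2 of them at or under 1e-05. With so few regions in a bin, these counts are to be read beside the 24.3% of the chromosome and the 19.9% of the list that reached this q.

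The longest stretches without a region were 251 kb from 9955828 to 10206947, 211 kb from 1208207 to 1418720, 206 kb from 5199384 to 5405648, 201 kb from 1950590 to 2151525 and 186 kb from 6993646 to 7179641. The one of 206 kb began at the right edge of the dense bin at 5.1 to 5.2 Mb, so the densest and one of the emptiest stretches of the chromosome were neighbours. The one of 201 kb was not next to the densely covered group of 4, which ended at 1926889. Regions at III:1932496-1932574 and III:1950248-1950589 lay between them. Chromosome III had 11 gaps over 150 kb, against 2 on chromosome I, 10 on II, 18 on IV, 33 on V and 14 on X, and its longest gap was shorter than those of all other chromosomes except I (223 kb).

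Regions far from any other were few. The nearest region was over 50 kb away for 18 regions (4.30%, 2.57% to 6.70%), against 6.53% elsewhere (5.56% to 7.62%). Taken singly, the other chromosomes had 2.55% on I, 5.25% on II, 7.34% on X, 9.73% on IV and 9.86% on V. Of the 18, 8 lay in the left part, 6 in the middle and 4 on the right. Their median width was 347 bp, and 2 had q at or under 1e-05 (11.1%, 1.38% to 34.7%), against 24.3% of the chromosome and 19.9% of the list. The most isolated was III:8307339-8307632, 294 bp wide with q = 7.42e-07, whose nearest neighbour was 136 kb away.

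At the chromosome ends, the first 100 kb of the span held 7 regions and the last 100 kb held 4. On the left these formed a pair at 13558 to 15028, a pair at 65266 to 67554, a pair at 87184 to 89464 and a single region 6659 bp further on, ending at 96548, after which no region followed for 138477 bp. Their lowest q was 3.36e-07, at III:65266-66010. On the right the last region, III:13779919-13781156, was broad (1238 bp) with q = 5.43e-04, the lowest of the 4.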

How the data were processed

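Per the file headers, the authors deposited regions on WormBase WS180, made with PeakSeq per the source column, and the only measured value is a q-value for each region that the authors assigned. The sources used here do not give the aligner, the PeakSeq release, its settings or how replicates were combined. All q values of the list were under 0.01, and no neighbours on chromosome III overlapped. The read depth is unknown, so intervals cover counting of regions only, and they take regions as independent of each other. Samples were grouped by their descriptions as ChIP or input DNA.

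Regions with chromosome III in the first column were kept. Widths count both end bases, gaps run from edge to edge, and windows, bins and parts of the span use midpoints. The span runs from the first to the last region, since no chromosome length was used. Shares have 95% exact (Clopper-Pearson) intervals. Computations used Python 3.11.15, numpy 2.4.6, pandas 2.3.3, scipy 1.17.1 and matplotlib 3.10.9, and the functions for gaps and merging were tested on simulated data with 400 regions.

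Named regions were the 15 of lowest q, the 8 widest, the 5 narrowest, groups of 6 or more, the 5 longest empty stretches and the densest windows and bins. Smaller groups, broad stretches, ends and isolated regions were picked once their values were known. The chromosome, lists and measures were chosen with earlier results of these data known. Alternatives were a stricter q, leaving out narrow regions, merging neighbours, other distances, other parts of the span and shifted windows. Genes, motifs and sequences at the regions were not analysed here, because the only gene table used is one of assembly WBcel235.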

Additional observations from a re-analysis of the deposited data

How the results depend on the processing

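Of 30 alternative values for chromosome III, 20 stayed within the 95% interval of the value reported, or within 1.5 times it for counts, and 10 moved. With q at or under 0.001, the number of regions was 237, the median width 421 bp, the share with another region within 5 kb 31.6% and the median gap 30.6 kb. Fewer regions were left, which widens gaps, and regions of low q were wider in the list. Merging over gaps of 1000 bp or less gave 11.4% of regions at 1000 bp or more and 32.4% with another within 5 kb, also by construction. The share with a neighbour was 24.1% within 2 kb and 60.6% within 10 kb. The middle 50% of the span held 55.1% of the regions, and q at or under 1e-05 left 24.3%. Values with another distance, part of the span or q limit differ by definition. The tally of 20 and 10 is therefore not a measure of robustness. Intervals of the medians and of rho are not given here. The share in the middle 33.3% of the span stayed between 35.5% and 38.8% under its other 4 alternatives, and Spearman's rho of width and −log10 q between 0.31 and 0.41. In windows shifted by 500 kb, the densest held 45 regions, the one from 10.5 to 11.5 Mb 42 and the sparsest 13. No paired analysis was possible because replicates have no values of their own in the combined list, and leaving out a replicate could not be done either.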

Other observations

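Of the 419 regions on chromosome III, 171 (40.8%) had a product of q value and line number that at least 1 other region of the deposited list also had. Products were taken as equal within 1e-09 on the log10 scale. The same share was not computed for the whole list or for other chromosomes. The value therefore does not show whether chromosome III differs from them.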
